A study of Homo sapiens with 24 samples.

Results

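The Hippo pathway output was examined through 10 genes, chosen by name from the 60675 genes in the count files. They were the coactivators YAP1 and WWTR1 (the gene for TAZ), the DNA-binding partner TEAD1, and 7 genes that YAP and TEAD are known to activate, CCN1, CCN2, ANKRD1, CRIM1, AMOTL1, AMOTL2 and LATS2. They were listed by name and not by a threshold on measured values, with earlier results of these data known. RNA was sequenced from ACHN cells, a human renal carcinoma line, and HK2 cells, an immortalized line of human kidney tubule, with 24 libraries in 8 groups of 3. In each line the groups were shNC (a control hairpin), shKDM5C (a hairpin against the histone demethylase KDM5C), shYY1 (a hairpin against the transcription factor YY1) and Dsh (both hairpins). All cells, controls included, carried a hairpin. The Dsh cells were made by putting a GFP-marked KDM5C hairpin into YY1-depleted cells, followed by screening by green fluorescence and puromycin resistance. Which hairpin of each gene was sequenced is not given in the sources used here. Each tissue state is represented by 1 cell line.

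In GRCh38 (Ensembl gene models) YAP1 lies at chr11:102110461-102233423 and TEAD1 at chr11:12674591-12944483, both on the plus strand, and WWTR1 at chr3:149517235-149736714 on the minus strand. CCN1 lies at chr1:85580761-85583962 and CRIM1 at chr2:36355926-36551135 on the plus strand, and CCN2 at chr6:131948176-131951373 and ANKRD1 at chr10:90912096-90921276 on the minus strand. AMOTL1 lies at chr11:94706431-94876753 on the plus strand, AMOTL2 at chr3:134355874-134375479 and LATS2 at chr13:20973032-21061547 on the minus strand. Reads were counted over all exons of each gene.

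In the Hippo pathway the kinases MST1/2 activate the kinases LATS1/2, which phosphorylate YAP and TAZ and hold them in the cytoplasm. Unphosphorylated YAP and TAZ enter the nucleus, bind TEAD factors and raise genes for matrix signalling, cytoskeleton and growth. Some of these targets, LATS2, AMOTL1 and AMOTL2 among them, encode proteins that restrain YAP in turn. In kidney epithelium the pathway responds to cell density, stiffness and injury. Most of its regulation lies in phosphorylation and location of the proteins, which RNA counts do not show.

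Between 15926561 and 24272298 read pairs per library were counted on genes, and the lowest count of any member in any library was 271, for ANKRD1 in ACHN Dsh cells. Levels below are CPM, the counts of a gene relative to the size of its library, scaled together over the 24 libraries, and CPM per kilobase of exon where genes are compared with one another. The hairpins lowered their targets in both lines. KDM5C fell by 0.73 on the log2 scale in ACHN shKDM5C and by 0.80 in ACHN Dsh cells, and YY1 fell by 0.88 in ACHN shYY1 and by 0.51 in ACHN Dsh cells. In HK2 cells KDM5C fell by 1.74 and 1.49 and YY1 by 1.70 and 1.49 in the same groups. KDM5C itself was higher in shYY1 cells, by 0.34 in ACHN and 0.35 in HK2 cells.

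One library stood apart, HK2 shKDM5C replicate 1. Mitochondrial genes took 11.8% of its counts, against 4.75% to 5.52% in the other 11 HK2 libraries, and its mean correlation with its group was 0.918, against 0.994 to 0.995 in the 9 libraries of the other HK2 groups. The members' changes against shNC that rest on it, and their counts in the other comparisons, are given with and without it. It held 35.9 CPM of KDM5C, against 67.9 and 67.0 CPM in the other 2 libraries of its group, so the fall of KDM5C in HK2 shKDM5C cells includes a lower value from this library. PAX8, a marker of the kidney lineage, was expressed in both lines, while the proximal tubule transporters LRP2, CUBN, AQP1 and SLC34A1 were each under 1 CPM in every group mean. CA9 and NDUFA4L2, markers of clear cell renal carcinoma, were at 0.124 and 1.42 CPM in ACHN shNC cells, which the labels call ccRCC. Summed levels of 4 endothelial markers did not exceed 1.77 CPM in any library and those of 4 immune markers 7.59 CPM, with KDR at 0 in all libraries. In bulk RNA, fewer cells of a kind and less RNA per cell cannot be told apart.

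Short TEAD recognition letters, CATTCC and its reverse complement GGAATG, were searched on both strands in RefSeq promoter windows of GRCh38.p14, from 250 bases before to 50 after the start. Windows were found for 7 of the 10 genes (YAP1, WWTR1, CCN2, ANKRD1, AMOTL1, AMOTL2 and LATS2), 9 windows in all. At least 1 match lay in 14% of all 35116 windows, at least 2 in 1.37% and at least 3 in 0.128%. The CCN2 window held 3 matches, and the part before the start (chr6:131951373-131951622, minus strand) is shown whole because it had the most matches of these 7 genes. TEAD letters are in capitals and the first bases of the matches lie 169, 104 and 95 bases before the start.
CCN2 promoter: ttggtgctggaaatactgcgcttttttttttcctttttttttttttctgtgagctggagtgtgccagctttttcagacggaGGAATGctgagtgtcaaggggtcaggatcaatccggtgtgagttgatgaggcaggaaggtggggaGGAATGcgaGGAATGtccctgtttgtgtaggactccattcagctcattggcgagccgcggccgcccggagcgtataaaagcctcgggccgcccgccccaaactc

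The ANKRD1 window held 2 matches, and the YAP1 window and 1 of the 2 AMOTL2 windows held 1 each before the start. These sites are shown with 7 bases on either side, since ANKRD1 had the largest changes of the 10 genes in the single knockdowns and YAP1 is the coactivator itself. The positions are chr10:90921295-90921314 and chr10:90921203-90921222 (minus strand) for ANKRD1, chr11:102110278-102110297 (plus strand) for YAP1 and chr3:134374504-134374523 (minus strand) for AMOTL2.
ANKRD1 site 220 bases before the start: caccaaaGGAATGgccctct
ANKRD1 site 128 bases before the start: tgagtctGGAATGaaaattc
YAP1 site 162 bases before the start: gtgtgcaGGAATGtagcaac
AMOTL2 site 69 bases before the start: actctcaCATTCCtggcata

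The ANKRD1 gene model used for counting begins between its 2 sites, upstream of the RefSeq start. The LATS2 window held 1 match, 9 bases after the start, and the windows of WWTR1 and AMOTL1 held none. The AMOTL1 window is chr11:94768106-94768405, inside the gene model used for counting, which starts at 94706431. The WWTR1 windows are chr3:149703224-149703523 and chr3:149657976-149658275, inside a minus-strand gene model that starts at 149736714. The windows of these 2 genes thus do not describe the starts of the counted gene models. The AMOTL2 window with the match, chr3:134374398-134374697, also lies inside its minus-strand gene model, which starts at 134375479. The other AMOTL2 window, chr3:134375368-134375667, spans that start and held no TEAD match. The YY1 letters AAGATGGC (reverse complement GCCATCTT) were in 2.89% of all windows and in none of the 9 windows of these genes. The AP-1 letters TGANTCA, which read the same on both strands, were in 7.71% of all windows and once in the ANKRD1 window, 195 bases before the start. No match of one motif overlapped a match of another. A match describes letters and is not evidence of binding.

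With a control hairpin, CCN1 was the most abundant of the 10 transcripts per length in both lines and AMOTL1 the least. In ACHN shNC cells the level was 515 ± 13.98 CPM per kilobase for CCN1, 155 ± 2.89 for CRIM1, 111 ± 2.29 for CCN2 and 69.5 ± 0.565 for AMOTL2 (SD, n = 3, as for all means below). WWTR1, LATS2, TEAD1 and YAP1 lay between 38.0 and 17.2, ANKRD1 at 10.6 and AMOTL1 at 5.07. In HK2 shNC cells CCN1 was at 217.5 ± 3.78, CRIM1 at 51.7 ± 0.479, CCN2 at 48.45 ± 1.75 and WWTR1 at 40.8 ± 2.24 CPM per kilobase. AMOTL2, YAP1 and TEAD1 followed at 34.6, 23.9 and 18.3, and LATS2, ANKRD1 and AMOTL1 at 11.4, 11.05 and 5.02.

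Among the target genes, LATS2, CRIM1, CCN1, CCN2 and AMOTL2 were higher in ACHN than in HK2 control cells. Of the 10 genes, 8 passed an adjusted p of 0.05 in edgeR's quasi-likelihood test, 6 higher and 2 lower in ACHN. The number that passed was near the share over all genes tested, 76.6%, with 38.6% higher and 38.0% lower. LATS2 differed by 1.66 ± 0.04 (log2, SE), CRIM1 by 1.59 ± 0.03, CCN1 by 1.25 ± 0.03, CCN2 by 1.202 ± 0.038, AMOTL2 by 1.02 ± 0.03 and TEAD1 by 0.61 ± 0.04. YAP1 was lower in ACHN by 0.46 ± 0.04 and WWTR1 by 0.09 ± 0.04. The WWTR1 call was lost without ACHN shNC replicate 1 or 2 or HK2 shNC replicate 2 (-0.08 to -0.06, adjusted p = 0.1 to 0.166). ANKRD1 (adjusted p = 0.602) and AMOTL1 (adjusted p = 0.757) did not pass the test. Origin and culture differ between the lines and cannot be told apart from the disease state.

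**Figure D1:**
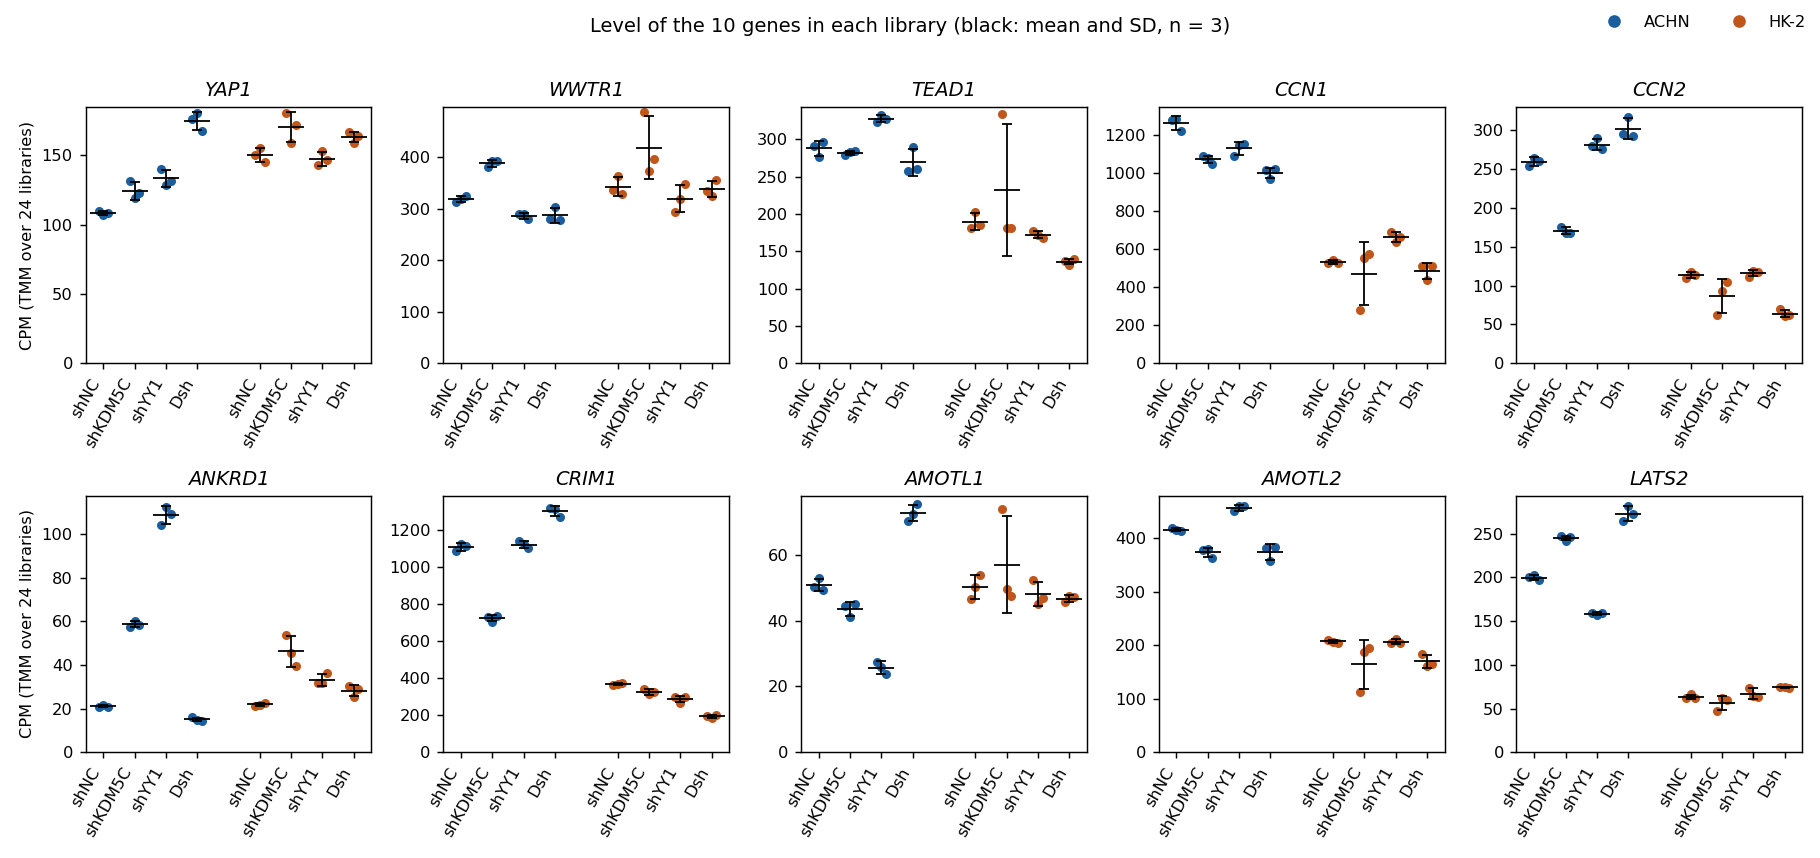
Level of each of the 10 genes in CPM (linear axis from 0, scaled over 24 libraries) in every library, with ACHN in blue and HK2 (HK-2) in orange and the 4 groups along the x axis; black bars give the mean and SD of 3 libraries. ANKRD1 rises from about 21 to 109 CPM between ACHN shNC and shYY1 libraries and lies near 15 CPM in Dsh, and the wide bars of HK2 shKDM5C come from replicate 1.

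Against shNC, nearly all members moved in ACHN cells, in both directions. In ACHN shKDM5C cells 9 of 10 passed the test, 4 higher (YAP1, WWTR1, ANKRD1 and LATS2) and 5 lower (CCN1, CCN2, CRIM1, AMOTL1 and AMOTL2), where 56.6% of all genes tested passed, 28.9% higher and 27.7% lower. In ACHN shYY1 cells 9 passed, 5 higher (YAP1, TEAD1, CCN2, ANKRD1 and AMOTL2) and 4 lower, against 48.7% of all genes, 24.2% higher and 24.5% lower. In ACHN Dsh cells 9 passed, 5 higher (YAP1, CCN2, CRIM1, AMOTL1 and LATS2) and 4 lower (WWTR1, CCN1, ANKRD1 and AMOTL2), against 62.6% of all genes, 30.7% higher and 32.0% lower. On the log2 scale the members' medians were -0.11, 0.04 and 0.06 in the 3 knockdowns, where the median over all genes was -0.01 in each. The targets did not shift together, and no target rose in all 3 ACHN knockdowns.

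In HK2 cells fewer members passed. In shYY1 cells 2 were higher (CCN1 and ANKRD1) and 1 lower (CRIM1), where 29.1% of all genes passed, 14.3% higher and 14.7% lower. In Dsh cells 3 were higher (YAP1, ANKRD1 and LATS2) and 5 lower (TEAD1, CCN1, CCN2, CRIM1 and AMOTL2), against 49.8% of all genes, 25.5% higher and 24.3% lower. In shKDM5C cells ANKRD1 alone passed, where 1.32% of all genes did, 0.668% higher and 0.656% lower. Without replicate 1, 5 members passed in shKDM5C cells, WWTR1 and ANKRD1 higher and CCN2, CRIM1 and AMOTL2 lower, and 22.3% of all genes. The members' log2 medians were 0.02, -0.01 and -0.11 in shKDM5C, shYY1 and Dsh cells, and the medians over all genes were 0.00, 0.01 and 0.00. With all 4 groups in the fit, so that the spread of shKDM5C replicate 1 entered the estimate, 2 members instead of 8 passed in Dsh cells, CCN2 and CRIM1, and 22.9% of all genes instead of 49.8%.

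Markers of cell state moved beside these genes in single and double knockdowns. All 5 epithelial markers (EPCAM, CDH1, KRT8, KRT18 and KRT19) were lower in Dsh cells of both lines, and their summed level, mostly keratins, was 1210 to 1378 CPM in ACHN Dsh against 2349 to 2414 CPM in ACHN shNC libraries. In HK2 cells it was 1044 to 1152 CPM in Dsh against 2474 to 2590 CPM in shNC libraries. Of 5 fibroblast markers, the 2 tested in ACHN (COL1A1 and PDGFRB) fell in Dsh cells and LUM was at 0 in every ACHN library, the sum of the list being 135 to 152 CPM against 582 to 634 CPM in shNC. In HK2 Dsh cells LUM and DCN rose, and the sum was 93.2 to 102 CPM against 42.15 to 43.95 CPM. In single knockdowns the ACHN fibroblast sum was 74.0 to 78.6 CPM in shKDM5C, below that in Dsh, and 189 to 196 CPM in shYY1 libraries. The epithelial sum was 2990 to 3136 CPM in ACHN shKDM5C and 2823 to 2879 CPM in ACHN shYY1, both above the control. In HK2 cells it was 2076 to 2584 CPM in shKDM5C and 1646 to 1739 CPM in shYY1 libraries, the latter below the control. The part of these changes in the results on YAP and TEAD genes was not tested.

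YAP1, which encodes the coactivator YAP, rose in all 3 ACHN knockdowns, most in Dsh. Its level was 110, 107 and 108 CPM in the shNC libraries, 132, 119 and 123 in shKDM5C, 140.1, 128 and 132 in shYY1, and 176.5, 180.3 and 167.5 in Dsh. Every Dsh library lay above every library of the other ACHN groups, and shKDM5C and shYY1 libraries overlapped. The log2 fold changes against shNC were 0.19 ± 0.04, 0.28 ± 0.04 and 0.69 ± 0.05 (SE), with adjusted p = 0.000313, 1.08e-07 and 2.37e-10. Dsh exceeded shYY1 by 0.40 ± 0.05. In HK2 cells YAP1 was at 150.5, 155.5 and 145 CPM in shNC libraries and 167, 159 and 164 CPM in Dsh libraries, a change of 0.13 ± 0.05 (adjusted p = 0.0227). That call was lost without shNC replicate 1 (0.13, adjusted p = 0.0605), without shNC replicate 3 (0.10, adjusted p = 0.134) or without Dsh replicate 1 (0.12, adjusted p = 0.0783). HK2 shYY1 libraries, at 143 to 153 CPM, overlapped the control. HK2 shKDM5C libraries held 180.3, 159 and 172 CPM, all above the control, with a change of 0.20 ± 0.11 (adjusted p = 0.423) with replicate 1 and of 0.13 ± 0.05 (adjusted p = 0.0559) without it.

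WWTR1 encodes TAZ, the paralog of YAP, and did not follow it. In ACHN cells it was at 314 to 325 CPM in shNC and 380.5 to 392.7 CPM in shKDM5C libraries, higher by 0.27 ± 0.03 (adjusted p = 3.06e-08). It was at 279.9 to 290.4 CPM in shYY1 and 278, 280.4 and 304 CPM in Dsh libraries, lower than shNC by 0.18 ± 0.03 and 0.15 ± 0.05. So YAP1 and WWTR1 moved in opposite directions in ACHN shYY1 and Dsh cells and in the same direction in shKDM5C cells. In HK2 shKDM5C cells WWTR1 was at 487 CPM in replicate 1 and at 373 and 396 CPM in the others, against 328 to 364 CPM in shNC. The change was 0.31 ± 0.15 (adjusted p = 0.361) with replicate 1 and 0.16 ± 0.05 (adjusted p = 0.011) without it. HK2 shYY1 and Dsh libraries overlapped the control.

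TEAD1, a transcription factor that carries YAP and TAZ on DNA, changed little in ACHN cells. It was at 277 to 296 CPM in shNC, 279 to 284.5 in shKDM5C, 323 to 332 in shYY1 and 257, 289.9 and 259.8 CPM in Dsh libraries. The shYY1 libraries lay above all others (0.16 ± 0.03, adjusted p = 2.27e-05), while Dsh overlapped shNC (-0.10 ± 0.05, adjusted p = 0.109). Without Dsh replicate 2 the Dsh change was -0.14 with adjusted p = 0.0065. In HK2 cells TEAD1 was at 181, 202 and 186 CPM in shNC and 137, 132 and 139 CPM in Dsh libraries, which did not overlap. The fall was -0.47 ± 0.05 (adjusted p = 2.31e-09). In HK2 shKDM5C replicate 1 it reached 333 CPM, with 181 and 182 CPM in the other 2 libraries, and the change against shNC was 0.32 ± 0.26 with that library and -0.07 ± 0.05 (adjusted p = 0.357) without it.

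CCN1, a secreted matricellular protein and a classical YAP target, was lower in all 3 ACHN knockdowns. It was at 1225 to 1288 CPM in shNC, 1051 to 1089 in shKDM5C, 1092 to 1153 in shYY1 and 973 to 1021 CPM in Dsh libraries. No knockdown library reached the lowest control, and the changes were -0.25 ± 0.03, -0.18 ± 0.03 and -0.33 ± 0.04. In HK2 cells CCN1 was at 527 to 545 CPM in shNC, 636 to 692 in shYY1 and 438.5 to 513 CPM in Dsh libraries. It rose by 0.32 ± 0.04 in shYY1 (adjusted p = 8.93e-06) and fell by 0.12 ± 0.05 in Dsh cells (adjusted p = 0.0309). The fall did not pass without shNC replicate 2 (-0.11, adjusted p = 0.11), without shNC replicate 3 (-0.13, adjusted p = 0.0578) or without Dsh replicate 2 (-0.05, adjusted p = 0.358). HK2 shKDM5C replicate 1 held 280 CPM and the others 556.5 and 577 CPM, and the change was -0.17 ± 0.24 with it and 0.08 ± 0.04 (adjusted p = 0.122) without it.

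CCN2, also called CTGF, is a secreted profibrotic protein of the same family. In ACHN cells it was at 254, 264 and 260 CPM in shNC libraries and 175, 168 and 167.5 CPM in shKDM5C libraries, a fall of -0.62 ± 0.03 (adjusted p = 2.51e-14). It was at 275 to 289 CPM in shYY1 and 292 to 317 CPM in Dsh libraries, higher by 0.09 ± 0.03 (adjusted p = 0.00983) and 0.22 ± 0.05 (adjusted p = 0.000345). The shYY1 call was lost without shYY1 replicate 2 (0.07, adjusted p = 0.0585). In HK2 cells CCN2 was at 109, 117 and 114 CPM in shNC and 69.3, 60.3 and 61.98 CPM in Dsh libraries, a fall of -0.82 ± 0.06 (adjusted p = 4.83e-13). Thus the gene whose promoter has 3 TEAD matches rose in Dsh cells of one line and fell in those of the other. HK2 shKDM5C libraries held 61.9, 93.4 and 104 CPM, lower by -0.38 ± 0.18 (adjusted p = 0.371) with replicate 1 and by -0.20 ± 0.06 (adjusted p = 0.0127) without it.

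ANKRD1, an ankyrin repeat protein of nucleus and sarcomere and a sensitive YAP target, had the largest changes of the 10 genes against shNC in both single knockdowns of both lines, but not in Dsh cells. In ACHN cells it was at 20.7, 21.6 and 20.9 CPM in shNC, 57.5, 60.1 and 58.2 in shKDM5C, 104, 112 and 109 in shYY1 and 15.96, 14.96 and 14.39 CPM in Dsh libraries. None of the 4 groups overlapped. The level rose in shKDM5C (log2 1.46 ± 0.06, adjusted p = 4.35e-17) and more in shYY1 cells (2.34 ± 0.05, adjusted p = 1.59e-28). In Dsh cells, which carry both hairpins, it fell by 0.48 ± 0.09 on the log2 scale (adjusted p = 7.82e-05). Dsh lay below shKDM5C by -1.94 ± 0.07 and below shYY1 by -2.84 ± 0.06.

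In HK2 cells ANKRD1 started at nearly the same level, 21.2 to 22.7 CPM in shNC, and rose in every knockdown. It was at 53.6, 45.6 and 39.3 CPM in shKDM5C, 31.9, 31.6 and 36.5 in shYY1 and 30.5, 25.4 and 28.8 CPM in Dsh libraries, all above the control. The changes were 1.10 ± 0.16 (adjusted p = 0.0277), 0.61 ± 0.09 (adjusted p = 2.01e-05) and 0.38 ± 0.09 (adjusted p = 0.00106). Without shKDM5C replicate 1 the first was 0.95 ± 0.09 with adjusted p = 1.66e-08. With replicate 1 kept, the call was lost when any of the other 5 libraries was left out (log2 1.07 to 1.21, adjusted p = 0.0737 to 0.208). ANKRD1 was thus higher in both single knockdowns of both lines, and lower in Dsh than in either single knockdown of both lines. In HK2 cells these last differences were -0.72 ± 0.17 against shKDM5C (adjusted p = 0.0351; -0.58 ± 0.09, adjusted p = 2.08e-05, without shKDM5C replicate 1) and -0.23 ± 0.09 against shYY1 (adjusted p = 0.0455). The first did not pass without shKDM5C replicate 2 or any 1 Dsh library (adjusted p = 0.0769 to 0.164), nor the second without shYY1 replicate 3 or Dsh replicate 2 or 3 (adjusted p = 0.0676 to 0.213).

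CRIM1, a transmembrane protein that binds growth factors of the BMP and VEGF families, moved in opposite directions in the 2 double knockdowns. In ACHN cells it was at 1082 to 1120 CPM in shNC, 703 to 734 in shKDM5C, 1100 to 1138 in shYY1 and 1270 to 1318 CPM in Dsh libraries. The shKDM5C libraries were lower by -0.63 ± 0.03 (adjusted p = 6.58e-16) and the Dsh libraries higher by 0.24 ± 0.04 (adjusted p = 3.00e-05), while shYY1 overlapped shNC. In HK2 cells it was at 364, 369.6 and 370.6 CPM in shNC, 298, 268 and 298 in shYY1 and 196, 184 and 200 CPM in Dsh libraries. These groups did not overlap, and the falls were -0.36 ± 0.05 (adjusted p = 7.59e-06) and -0.92 ± 0.04 (adjusted p = 1.82e-17). HK2 shKDM5C libraries, at 341, 311 and 322 CPM, lay below the control, by -0.16 ± 0.10 (adjusted p = 0.468) with replicate 1 and by -0.22 ± 0.04 (adjusted p = 0.000146) without it.

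The 3 remaining targets encode restraints on YAP. AMOTL1, an angiomotin-like scaffold that binds YAP at junctions, was at 50.2, 52.9 and 49.5 CPM in ACHN shNC and at 27.5, 25.9 and 23.9 CPM in shYY1 libraries, a fall of -1.003 ± 0.06 (adjusted p = 4.57e-16). ACHN shKDM5C libraries held 41.04 to 44.96 CPM (-0.24 ± 0.05) and Dsh libraries 70.5, 72.4 and 75.5 CPM (0.52 ± 0.06, adjusted p = 1.40e-07). The 4 ACHN groups did not overlap, and their order, shYY1, shKDM5C, shNC and Dsh from low to high, was the reverse of that of ANKRD1. In HK2 cells AMOTL1 lay between 45.03 and 54.01 CPM in 11 of 12 libraries, with 74.05 CPM in shKDM5C replicate 1, and no knockdown passed the test. In HK2 shKDM5C the change was 0.20 ± 0.21 (adjusted p = 0.623) with replicate 1 and -0.06 ± 0.07 (adjusted p = 0.642) without it.

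AMOTL2, its close relative and a frequent marker of YAP activity, had small changes in ACHN cells. It was at 413 to 419 CPM in shNC, 363.5 to 379.5 in shKDM5C (-0.17 ± 0.03), 449.9 to 460 in shYY1 (0.11 ± 0.03) and 357 to 384 CPM in Dsh libraries (-0.15 ± 0.04), each passing the test. In HK2 cells it was at 204.9 to 210 CPM in shNC, 204 to 212 in shYY1 and 162 to 183 CPM in Dsh libraries, the last lower by -0.28 ± 0.05 (adjusted p = 1.71e-05). HK2 shKDM5C replicate 1 held 112 CPM and the others 188 and 194 CPM. The change there was -0.32 ± 0.19 (adjusted p = 0.445) with replicate 1 and -0.12 ± 0.04 (adjusted p = 0.0497) without it.

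LATS2, the kinase that phosphorylates YAP and TAZ, was at 200.2, 202.5 and 197 CPM in ACHN shNC libraries. It rose in shKDM5C (242 to 247 CPM, 0.28 ± 0.03), fell in shYY1 (157.2 to 159.6 CPM, -0.36 ± 0.03) and rose in Dsh cells (265 to 282 CPM, 0.45 ± 0.04, adjusted p = 3.87e-08), with no overlap between any of the 4 groups. In HK2 cells it was at 62.5, 66.4 and 62.2 CPM in shNC and 74.9, 74.6 and 73.2 CPM in Dsh libraries, higher by 0.23 ± 0.06 (adjusted p = 0.00143). HK2 shYY1 libraries overlapped the control, and HK2 shKDM5C held 47.3, 61.8 and 59.9 CPM, a change of -0.16 ± 0.13 with replicate 1 and of -0.07 ± 0.06 (adjusted p = 0.498) without it.

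**Figure D2:**
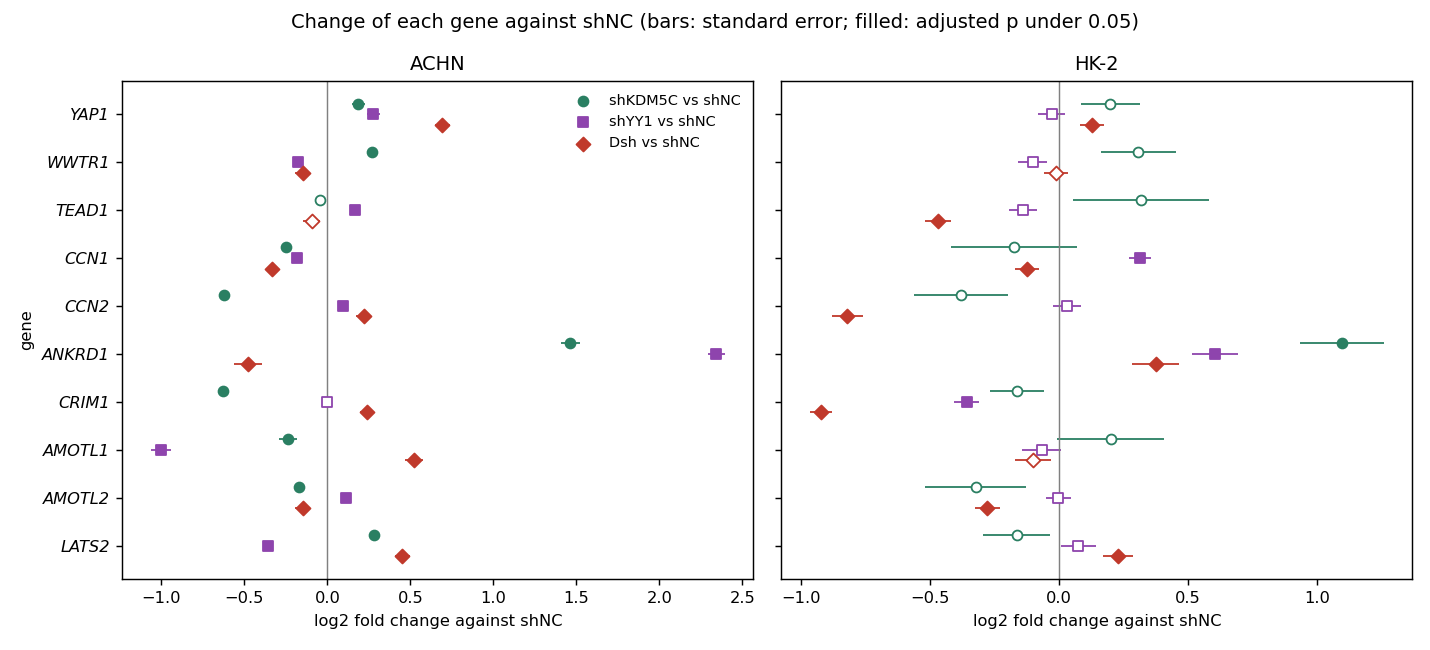
Log2 fold change against shNC (x axis) of the 10 genes (y axis) in shKDM5C (green circles), shYY1 (purple squares) and Dsh (red diamonds), in ACHN (left) and HK2 (right); bars are standard errors, and filled symbols passed an adjusted p of 0.05. ANKRD1 reaches 2.34 in ACHN shYY1 and -0.48 in ACHN Dsh, and CCN2 and CRIM1 lie right of 0 in ACHN Dsh and left of 0 in HK2 Dsh.

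The next question was how the double knockdown compared with the single ones. The comparisons share the Dsh or the control libraries and are not independent. In ACHN cells 7 of the 10 genes differed between Dsh and shKDM5C (62.5% of all genes did), 8 between Dsh and shYY1 (64.6%) and 10 between shYY1 and shKDM5C (60.7%). YAP1 in the last comparison (0.11 ± 0.04) did not pass without shKDM5C replicate 2 or 3 or without shYY1 replicate 1 or 3 (0.07 to 0.12, adjusted p = 0.0543 to 0.219), nor did CCN1 (0.08 ± 0.03) without shYY1 replicate 2 (0.07, adjusted p = 0.0555). In HK2 cells 7 genes differed between Dsh and shYY1 (47.7% of all genes), and 2 with all 4 groups in the fit (22%). Between Dsh and shKDM5C 2 did, ANKRD1 and CRIM1, both lower in Dsh (11.9% of all genes), and 8 without replicate 1 (43.3%). Between shYY1 and shKDM5C edgeR called 0 of the 10 in HK2 cells (4.51% of all genes), with 2 at an unadjusted p under 0.05 and 0 by DESeq2, and 5 without replicate 1 (35.3%).

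The interaction term asks whether the change in Dsh cells equals the sum of the 2 single changes on the log2 scale. The depletion was not matched between the groups. YY1 was higher in Dsh than in shYY1 cells, by 0.35 ± 0.06 in ACHN and 0.22 ± 0.06 in HK2 cells, both passing. In ACHN cells KDM5C and YY1 had interactions of their own, -0.42 ± 0.07 and 0.28 ± 0.07, and in HK2 cells neither passed. Dsh cells also carried a second hairpin and were screened by green fluorescence. The part of these differences in the interactions below was not tested. In ACHN cells the interaction passed for 8 of 10 genes, where 55.6% of all genes passed. For ANKRD1 the single changes add to 3.81, the Dsh change was -0.48, and the interaction was -4.31 ± 0.08 (adjusted p = 3.48e-23). For AMOTL1 the sum was -1.24 against 0.52 in Dsh, an interaction of 1.74 ± 0.08 (adjusted p = 5.68e-15). CRIM1 (0.84 ± 0.05), CCN2 (0.72 ± 0.06), LATS2 (0.50 ± 0.05) and YAP1 (0.20 ± 0.06) were also higher in Dsh than the sum, and WWTR1 (-0.26 ± 0.05) and TEAD1 (-0.24 ± 0.06) lower. CCN1 (0.08 ± 0.05, adjusted p = 0.171) and AMOTL2 (-0.11 ± 0.05, adjusted p = 0.0597) did not pass. Without Dsh replicate 2 CCN1 did (0.10, adjusted p = 0.0475), and without shKDM5C replicate 3 or Dsh replicate 1 or 3 AMOTL2 did (-0.14 to -0.13, adjusted p = 0.0268 to 0.046).

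In HK2 cells 2 interactions passed, where 9.61% of all genes did. That of ANKRD1 was -1.33 ± 0.19 (adjusted p = 0.00106), and that of CRIM1 was -0.40 ± 0.12 (adjusted p = 0.0454), opposite in sign to the CRIM1 interaction in ACHN cells. The CRIM1 call was lost when any of 10 of the 12 libraries was left out (-0.45 to -0.37, adjusted p = 0.0542 to 0.125). Without shKDM5C replicate 1, 5 interactions passed, all negative, where 28.7% of all genes did. They were ANKRD1 (-1.18 ± 0.13), CCN2 (-0.64 ± 0.09), CCN1 (-0.51 ± 0.07), CRIM1 (-0.34 ± 0.07) and TEAD1 (-0.25 ± 0.07).

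**Figure D3:**
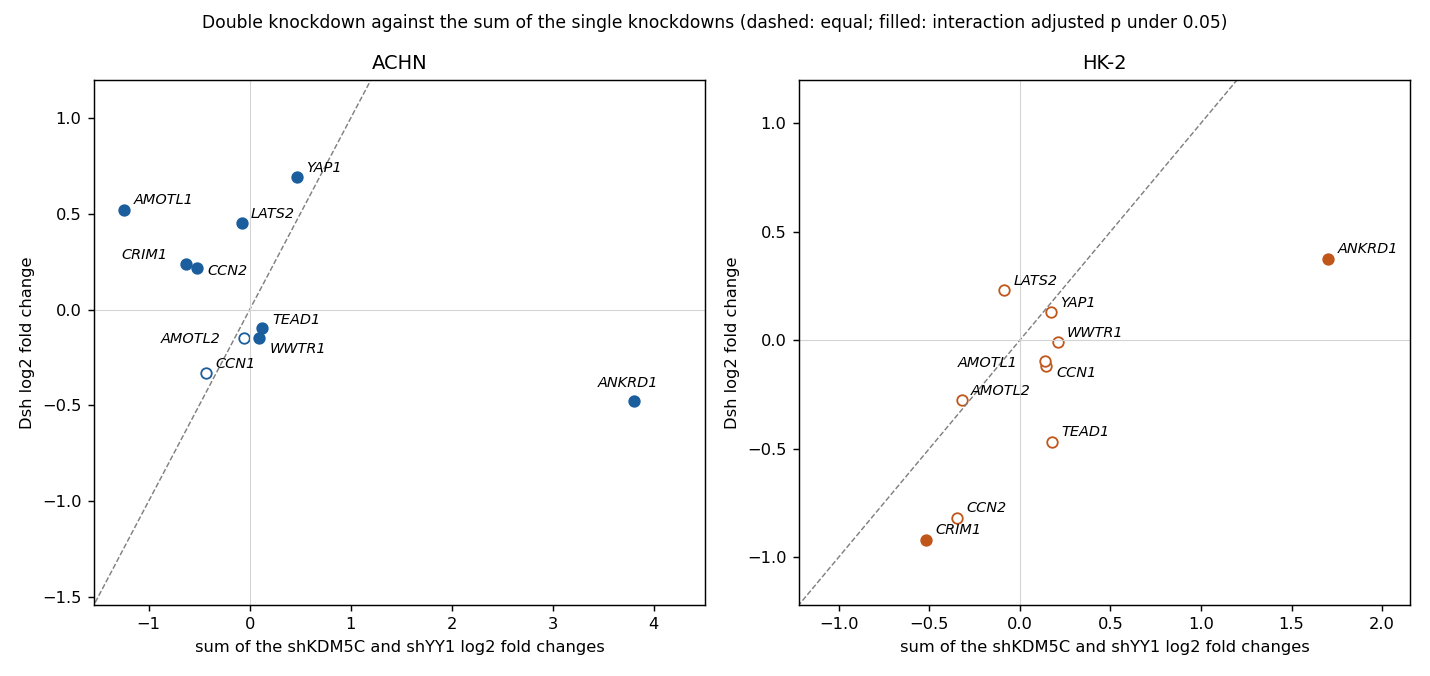
Log2 fold change of each gene in Dsh cells (y axis) against the sum of its shKDM5C and shYY1 log2 fold changes (x axis, on its own scale), in ACHN (left) and HK2 (right). The dashed line marks equality and filled points have an interaction with adjusted p under 0.05. ANKRD1 lies far right of the line in both lines, at sums of 3.81 and 1.70, and AMOTL1, CRIM1, CCN2 and LATS2 lie above the line in ACHN cells.

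The responses of the 2 lines were compared by the difference of their changes, ACHN minus HK2. For Dsh 8 of 10 genes differed (46.0% of all genes). The largest were CRIM1 (1.18 ± 0.06) and CCN2 (1.06 ± 0.07), which rose in ACHN and fell in HK2 cells, followed by ANKRD1 (-0.83 ± 0.13), which fell in ACHN and rose in HK2 cells. AMOTL1 (0.64 ± 0.09), YAP1 (0.58 ± 0.07), TEAD1 (0.39 ± 0.07), LATS2 (0.24 ± 0.07) and CCN1 (-0.19 ± 0.07) differed as well. The CCN1 difference did not pass without HK2 Dsh replicate 1 (-0.16, adjusted p = 0.0583). WWTR1 passed without ACHN Dsh replicate 2 (-0.17, adjusted p = 0.0358) or HK2 shNC replicate 2 (-0.17, adjusted p = 0.0454), and AMOTL2 without ACHN Dsh replicate 2 (0.17, adjusted p = 0.0273) or HK2 Dsh replicate 1 (0.20, adjusted p = 0.013).

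For shYY1 7 genes differed between the lines (33.1% of all genes). ANKRD1 (1.75 ± 0.10), CRIM1 (0.36 ± 0.05), YAP1 (0.32 ± 0.06) and TEAD1 (0.32 ± 0.06) were higher in the ACHN response, and AMOTL1 (-0.92 ± 0.10), CCN1 (-0.49 ± 0.05) and LATS2 (-0.42 ± 0.07) lower. For shKDM5C 2 differed (11.9% of all genes), CRIM1 (-0.45 ± 0.09) and LATS2 (0.45 ± 0.13). The LATS2 call was lost when any 1 of the 6 ACHN libraries or the 3 HK2 shNC libraries was left out (0.43 to 0.48, adjusted p = 0.0734 to 0.0985). With total counts or no filter CRIM1 alone passed, and with the replicate number as a block within each line neither did (adjusted p = 0.0667 and 0.0924). Without HK2 shKDM5C replicate 1 the count was 5 (33.9% of all genes), with CCN1 (-0.33 ± 0.04), CCN2 (-0.41 ± 0.06) and ANKRD1 (0.52 ± 0.10) added. The fall of KDM5C and YY1 was itself smaller in ACHN cells, by 0.71 and 0.99 on the log2 scale in Dsh, and the part of this in the differences was not tested.

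Other genes of the pathway were taken from lists of known function. Their counts in Dsh cells stand beside 62.6% of all genes called in ACHN (30.7% higher and 32.0% lower) and 49.8% in HK2 cells (25.5% and 24.3%). Of 7 other TEAD and VGLL genes, 5 were tested in ACHN and 4 in HK2 cells, and VGLL4, a TEAD cofactor that competes with YAP, was higher in Dsh cells of both lines. It was at 29.0 ± 0.912 CPM in ACHN shNC and 58.0 ± 1.12 CPM in ACHN Dsh libraries (log2 1.00 ± 0.06), and at 30.9 ± 1.78 and 41.3 ± 1.93 CPM in HK2 cells (0.43 ± 0.08). In the single knockdowns VGLL4 was at 48.9 (shKDM5C) and 40.7 CPM (shYY1) in ACHN, and at 34.5 and 33.2 CPM in HK2 cells. In ACHN Dsh cells TEAD4 was higher (0.15 ± 0.06) and TEAD2 lower (-0.22 ± 0.07), while in HK2 cells VGLL4 was the only one of the 4 that passed. ACHN levels of TEAD4 were 51.9 CPM in shNC, 57.4 in Dsh, 66.3 in shKDM5C and 69.05 in shYY1 cells.

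Of 22 Hippo kinases and upstream regulators, 11 were higher and 4 lower among 21 tested in ACHN Dsh cells, and 5 higher and 8 lower among 22 in HK2 Dsh cells. The list medians were 0.13 and -0.06. In ACHN cells the protocadherin FAT4 (31.3 ± 2.73 to 56.7 ± 6.85 CPM) and the angiomotin AMOT (32.1 ± 1.01 to 48.7 ± 6.45 CPM) rose, and the scaffold SAV1, partner of the MST kinases (30.7 ± 0.883 to 14.8 ± 1.11 CPM), and WWC2 (203 ± 3.42 to 133 ± 11 CPM) fell. In HK2 cells the kinases TAOK3 (0.57 ± 0.10) and LATS1 (0.57 ± 0.06) rose, and NF2, the tumour suppressor merlin upstream of LATS (219 ± 5.27 to 105 ± 8.54 CPM, -1.05 ± 0.05), and WTIP (-1.02 ± 0.12) fell.

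The 16 other YAP/TAZ target genes also split. In ACHN Dsh cells 8 were higher and 7 lower of 16, and in HK2 Dsh cells 5 higher and 9 lower of 15 tested, with medians of 0.10 and -0.19. In both lines NT5E, the surface enzyme CD73, and the stress gene GADD45A rose and the matrix protein CCDC80 fell. NT5E went from 30.8 ± 0.439 to 175 ± 5.84 CPM in ACHN and from 55.5 ± 8.22 to 248 ± 14.9 CPM in HK2 cells, and GADD45A rose by 1.22 ± 0.05 and 2.08 ± 0.09. CCDC80 fell by 2.08 on the log2 scale in ACHN and by 1.52 in HK2 cells. IGFBP3, which binds insulin-like growth factors, fell from 710 ± 30.8 to 84.8 ± 4.98 CPM in ACHN Dsh cells, and tissue factor F3 fell from 78.9 ± 6.15 to 20.9 ± 2.66 CPM in HK2 Dsh cells. In shKDM5C and shYY1 cells IGFBP3 was at 196 and 1167 CPM (ACHN) and F3 at 34.5 and 101 CPM (HK2). CCDC80 was at 907, 799, 2864 and 214 CPM in ACHN shNC, shKDM5C, shYY1 and Dsh, and at 88.0, 40.2, 68.9 and 30.6 CPM in HK2 cells. GADD45A was at 53.3, 85.15, 61.0 and 124 CPM in ACHN and 18.2, 11.4, 33.6 and 76.4 CPM in HK2 cells. NT5E in shKDM5C and shYY1 was at 45.3 and 30.5 CPM in ACHN and 24.9 and 70.1 CPM in HK2 cells. In ACHN shKDM5C cells 7 of 16 were higher and 9 lower, where 56.6% of all genes passed, and in ACHN shYY1 cells 6 higher and 8 lower (48.7%). In HK2 shYY1 cells 6 of 15 were higher and 5 lower (29.1%). In HK2 shKDM5C cells 2 were lower (1.32%), and without replicate 1 there was 1 higher and 10 lower (22.3%).

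MRTF and SRF drive actin and contractile genes and respond to many of the same cues as YAP. Of 10 of their targets, 1 was higher and 6 lower in ACHN Dsh and 1 higher and 4 lower in HK2 Dsh cells, where 62.6% and 49.8% of all genes passed, with medians of -0.28 and -0.03. TAGLN, an actin-binding protein, fell in both, from 31.6 ± 1.497 to 6.57 ± 1.23 CPM in ACHN and from 62.1 ± 2.11 to 15.2 ± 2.07 CPM in HK2 cells. In shKDM5C and shYY1 cells TAGLN was at 25.45 and 59.3 CPM in ACHN and at 27.9 and 53.6 CPM in HK2. MYL9, a myosin light chain (-0.94 ± 0.05), fell and ACTA2, smooth muscle actin (0.55 ± 0.09), rose in ACHN cells, and TPM1, a tropomyosin (-0.67 ± 0.04), fell and VCL, the focal adhesion protein vinculin (0.47 ± 0.04), rose in HK2 cells. ACHN levels of ACTA2 were 16.4 CPM in shNC, 15.8 in shKDM5C, 23.85 in Dsh and 30.1 in shYY1 cells. In the same order MYL9 was at 227, 173, 118 and 276 CPM. Of 8 AP-1 and EGR1 genes, whose products often bind beside TEAD, 4 were higher and 1 lower in ACHN Dsh and 5 higher and 1 lower in HK2 Dsh cells, with medians of 0.08 and 0.55. FOSL1 rose in both (0.85 ± 0.05 and 1.71 ± 0.07) and EGR1 fell in both (-0.36 ± 0.12 and -1.96 ± 0.11). In ACHN shKDM5C cells FOSL1 was at 210.5 CPM, above 175.5 in Dsh, and EGR1 at 3.45 CPM, below 9.82 in Dsh. In HK2 cells FOSL1 was highest in Dsh (117 CPM), and EGR1 was at 6.40 CPM in shYY1 against 6.94 in Dsh. JUND rose in ACHN (1.36 ± 0.05) and FOSB in HK2 cells (2.00 ± 0.14). JUND was at 106 CPM in ACHN shNC, 78.7 in shKDM5C, 120 in shYY1 and 271 in Dsh cells.

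**Figure D4:**
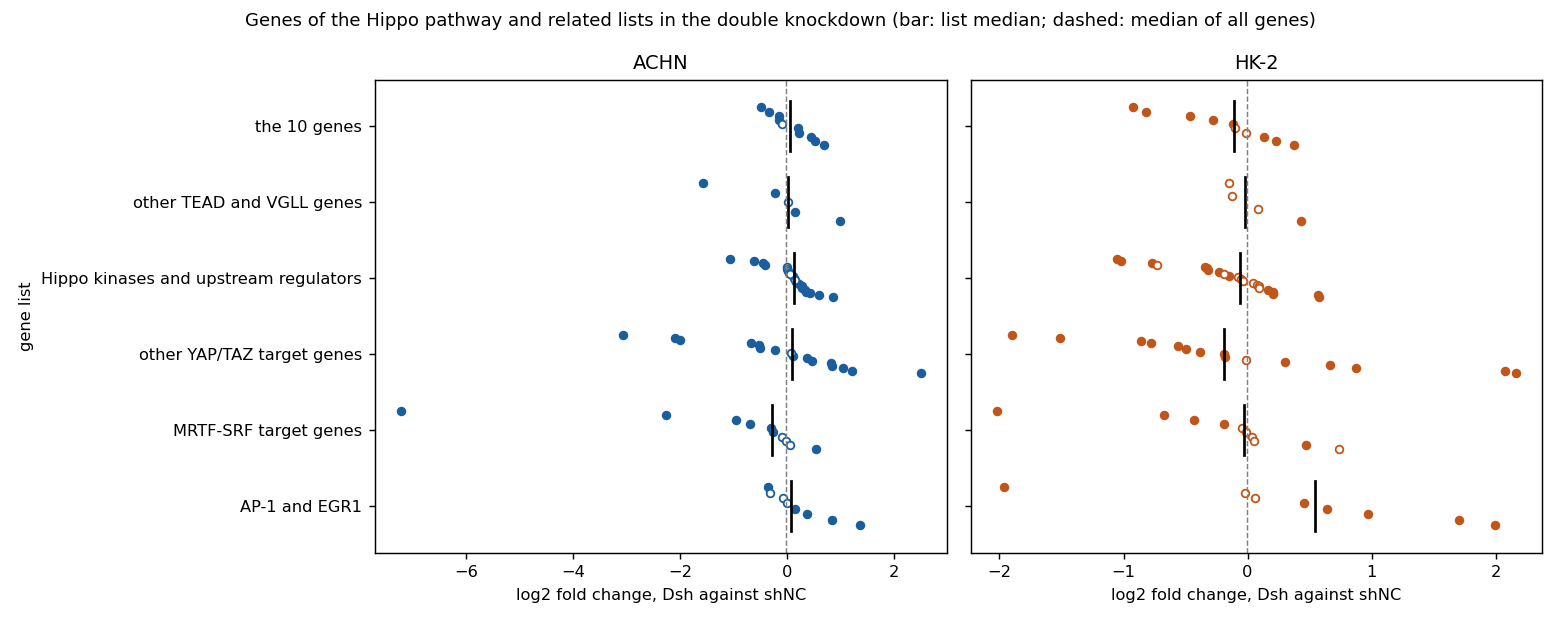
Log2 fold change of Dsh against shNC (x axis, a separate range per panel) for the 10 genes and the genes of 5 related lists (rows), in ACHN (left) and HK2 (right); filled points passed an adjusted p of 0.05, black bars are list medians and the dashed line is the median of all genes. Every list has points on both sides of 0, and the list medians run from -0.28 to 0.13 in ACHN and from -0.19 to 0.55 in HK2 cells.

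Among themselves the 10 genes did not vary as a block. With log2 CPM centred on the mean of each line, the 45 pairs of genes had a median Pearson correlation of -0.008 over the 24 libraries, with 6 pairs above 0.5 and 7 below -0.5. The points share libraries, groups of 3 replicates and the library that stood apart, so these values are a description. The highest were 0.861 between CCN1 and AMOTL2, 0.809 between CCN2 and CRIM1 and 0.671 between CCN2 and AMOTL2. CCN1 and CCN2 were at 0.517. The lowest was -0.789 between ANKRD1 and AMOTL1. Without HK2 shKDM5C replicate 1 the median was 0.001 over 23 libraries, with 8 pairs above 0.5 and 7 below -0.5, and the lowest, of the same pair, was -0.905. Among 10089 genes with a mean of at least 10 CPM, those most like CCN1 over the same 24 libraries were MYL6B (0.934), CLASRP (0.927) and MRPS26 (0.925). Those most like CCN2 were CPNE1 (0.935), EPS8L2 (0.922) and CAPNS1 (0.901), and those most like ANKRD1 were CLDN11 (0.969) and EFEMP1 (0.923). For the same genes without that library the values with CCN1 were 0.860, 0.798 and 0.844, those with CCN2 0.934, 0.942 and 0.890, and those with ANKRD1 0.972 and 0.924.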

How the data were processed

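RNA-seq was analysed in 24 libraries of ACHN and HK2 cells, 8 groups of 3. For the deposited counts, the authors aligned reads to GRCh38 with HISAT2 2.0.5 and counted read pairs per gene of Ensembl release 84 with featureCounts (2.0.1 in the file headers, 1.5.0-p3 in the submitters' processing notes), without strand. The counts are raw. The members, the related lists and the comparisons were chosen with earlier results of these data known. Counts of 15926561 to 24272298 per library were used as deposited, symbols were matched for 56558 of 60675 genes, and the others, 0.243% of counts, stayed in. Of overlapping genes, WWTR1-AS1 shares 795 exon bases with WWTR1 on the opposite strand (270 counts against 147405 over all libraries), and no other shared exon belonged to a gene of more than 26 counts.

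Tests used edgeR 4.0.16 in R 4.3.3, with TMM scaling, edgeR's filter on low counts, the quasi-likelihood F test on the libraries of the groups compared, and Benjamini-Hochberg adjustment over all genes tested. All 10 members passed the filter in every comparison. The call threshold was an adjusted p of 0.05. Standard errors were derived from the F statistic. Interactions used the 12 libraries of a line, and differences between lines the 12 libraries of 2 groups in both lines. CPM values were scaled by TMM over 24 libraries. The genes named were the 10 members, KDM5C and YY1, up to 2 higher and 2 lower genes per list and line in Dsh against shNC by fold change (adjusted p under 0.05 and at least 10 CPM in the higher group), the 3 genes most correlated with CCN1, CCN2 and ANKRD1, marker genes, and overlapping genes. Some genes that this rule names are not reported here. The steps were tested on simulated counts. Alternatives were DESeq2 1.42.0, RLE or total-count scaling, no filter, at least 10 counts in every library of a group, the replicate number as a block, all 4 groups in the fit, and each library left out. Correlations without HK2 shKDM5C replicate 1 were added after seeing the data. Nothing states that the repeats are separate cultures, so p-values measure the spread between these libraries, which may be technical. No library pair of a group was identical or within sampling noise. Figures were drawn with matplotlib 3.10.9.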

Additional observations from a re-analysis of the deposited data

Results flagged for a closer look

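Of the 10 genes, 8 responded to the double knockdown differently in the 2 lines by the test of the difference itself (ACHN minus HK2, log2): CRIM1 by 1.18, CCN2 by 1.06, AMOTL1 by 0.64, YAP1 by 0.58, TEAD1 by 0.39, LATS2 by 0.24, CCN1 by -0.19 and ANKRD1 by -0.83. CCN2 and CRIM1 rose in ACHN and fell in HK2 cells, and ANKRD1 did the reverse. The same test called 46.0% of all genes for Dsh, 33.1% for shYY1 and 11.9% for shKDM5C. For shYY1 the response differed in 7 genes, ANKRD1 by 1.75, CRIM1 by 0.36, YAP1 by 0.32, TEAD1 by 0.32, LATS2 by -0.42, CCN1 by -0.49 and AMOTL1 by -0.92. For shKDM5C it differed in CRIM1 by -0.45 and in LATS2 by 0.45, with HK2 shKDM5C replicate 1 included. Both calls ended with the replicate block, and that of LATS2 also with total counts or no filter. Without that library the values were -0.40 and 0.35 (adjusted p = 1.96e-08 and 1.88e-05).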

How the results depend on the processing

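Of 2580 values of the 10 genes over all alternatives, 2383 (92.4%) kept their direction and their side of the threshold, and 1129 of 1200 (94.1%) when no library was left out. The changes of sign below are log2 values that did not pass, except CCN1 and AMOTL2 in HK2 Dsh against shKDM5C, which passed without HK2 shKDM5C replicate 1, and the cause was not tested. CRIM1 in ACHN shYY1 was 0.00117 with DESeq2, 0.00114 with RLE, 0.00526 with no filter, 0.00323 with at least 10 counts and 0.0160 with all 4 groups. In ACHN Dsh against shKDM5C TEAD1 was 0.00311 with total counts and AMOTL2 -0.0128 with no filter, and WWTR1 against shYY1 was -0.00877 with no filter. With total counts CCN2 in HK2 shYY1 was -0.00456, YAP1 in the HK2 interaction 0.0483 and AMOTL1 between the shNC groups -0.0355. In the shKDM5C difference between lines YAP1 was -0.0261 with DESeq2, -0.0268 with RLE and -0.00682 with at least 10 counts, and WWTR1 0.0159 with total counts and 0.0121 with no filter. Counts of members passing moved in HK2 comparisons. With all 4 groups they were 2 for Dsh against shNC (22.9% of all genes), 5 for Dsh against shKDM5C (27.2%), 2 for Dsh against shYY1 (22%) and 2 for shYY1 against shKDM5C (21.9%), where HK2 shKDM5C replicate 1 enters the spread. With total counts the HK2 interaction and the shKDM5C difference passed for 1 gene each (9.27% and 11.7% of all genes), and with no filter the latter for 1 (5.27%). Some calls ended with a setting. YAP1 in ACHN shYY1 against shKDM5C did with DESeq2, no filter or all 4 groups (adjusted p = 0.0566 to 0.0667). YAP1 in HK2 Dsh did with total counts (adjusted p = 0.102). ANKRD1 in HK2 Dsh against shYY1 did with DESeq2 (adjusted p = 0.0534). CRIM1 in the HK2 interaction did with total counts or no filter (adjusted p = 0.0717 and 0.242). LATS2 in the Dsh difference did with no filter (adjusted p = 0.0509), as did WWTR1 between shNC groups (adjusted p = 0.0764). With all 4 groups, HK2 calls far from the threshold ended as well. CCN1 in shYY1 went from adjusted p = 8.93e-06 to 0.434 and TEAD1 in Dsh from 2.31e-09 to 0.106. AMOTL2 in Dsh went from 1.71e-05 to 0.217, and CCN1 in Dsh against shYY1 from 7.25e-07 to 0.124. TEAD1 in HK2 shYY1 (adjusted p = 0.0527) passed in 5 of 7 settings that kept all libraries (adjusted p = 0.0138 to 0.0494). The replicate numbers did not pair the libraries: of 18 pairs per line, 1 in ACHN and 5 in HK2 cells correlated above 0.1 (-0.12 to 0.127 and -0.334 to 0.137), and not every library was nearest its own number. With the replicate block 0 members passed in edgeR for HK2 shKDM5C against shNC (0.00% of all genes), 1 for HK2 Dsh against shKDM5C (4.97%), 1 for the HK2 interaction (7.10%) and 0 for the shKDM5C difference (5.33%), and ACHN counts against shNC stayed at 9. Leaving out 1 library at a time gave counts of 0 to 5 for HK2 shKDM5C against shNC, 0 to 8 for Dsh against shKDM5C, 0 to 5 for shYY1 against shKDM5C, 1 to 5 for the interaction and 1 to 5 for the shKDM5C difference, each highest without HK2 shKDM5C replicate 1. Sign changes then spanned CRIM1 -0.0137 to 0.0122 (ACHN shYY1), AMOTL2 -0.0143 to 0.0582 (ACHN Dsh against shKDM5C) and WWTR1 -0.0217 to 0.0388 (against shYY1). In HK2 shKDM5C they spanned TEAD1 -0.0697 to 0.481, CCN1 -0.335 to 0.0805, AMOTL1 -0.059 to 0.33, in shYY1 AMOTL2 -0.0219 to 0.00809, LATS2 -0.000892 to 0.117, and in Dsh WWTR1 -0.0438 to 0.034. They spanned CCN1 -0.206 to 0.215, AMOTL2 -0.159 to 0.172 in HK2 Dsh against shKDM5C, AMOTL1 -0.0802 to 0.0255 against shYY1, and YAP1 -0.0984 to 0.028, AMOTL1 -0.356 to 0.0332, AMOTL2 -0.147 to 0.17 in the HK2 interaction. In the shKDM5C difference they spanned YAP1 -0.0422 to 0.0581, WWTR1 -0.0987 to 0.113, TEAD1 -0.488 to 0.0317, CCN1 -0.326 to 0.107, AMOTL2 -0.0431 to 0.3002, and between shNC groups AMOTL1 -0.0352 to 0.0694. Every member had 271 or more counts in every library, and 3 libraries a group limit the precision.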
